A study of Mus musculus with 4 samples.

Results

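The cytosolic ribosomal protein genes encode the proteins that, with the ribosomal RNAs, make up the large and the small subunit of the ribosome. They were taken as the genes whose symbol starts with Rpl or Rps followed by a number, together with Rplp0, Rplp1, Rplp2 and Rpsa, on probe sets that the platform annotation gives a single symbol. Ribosomal S6 kinases, binding partners and annotated pseudogenes were left out. The rule found 49 genes among 18193 named genes, 26 of the large and 23 of the small subunit, on 105 probe sets. Each gene is represented by its brightest probe set, and 45 of the 49 genes passed a filter at a mean signal of 49.4 and were tested.

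The samples were 4 clones of J558, a BALB/c (H-2Ld) mouse plasmacytoma line grown in culture. AID, or activation-induced cytidine deaminase, edits immunoglobulin genes in activated B cells and so sets off hypermutation and class switching. A sequence targeting AID in the pSilencer 1.0 vector was introduced into 2 clones and the empty vector into 2 control clones, and all 4 clones also took up a neomycin resistance vector and were selected with G418. The labels join them into 2 pairs of 1 control and 1 AID-silenced clone. Each sample is a single clone on a single Affymetrix Mouse 430 2.0 array, so differences between clones, between arrays and between treatments cannot be told apart within a pair. Since the RNA came from bulk cells, fewer cells with a transcript and less of it per cell cannot be told apart either.

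Ribosomal protein genes are among the most strongly transcribed genes of dividing cells, and plasma cells draw on ribosomes heavily because they secrete immunoglobulin. Their messenger RNAs typically begin with a 5′ terminal oligopyrimidine tract, an uninterrupted stretch of C and U that starts at the cap and places their translation under control of the mTOR kinase and the RNA-binding protein Larp1. Production is coordinated over the whole family, and subunit proteins that find no ribosome are degraded, while some, such as Rpl11, can bind the p53 inhibitor Mdm2.

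The sequence around the annotated start site was examined because it holds this shared feature of the family, which the choice of genes did not use. RefSeq promoters (GRCm38.p6, 250 bases before to 50 after the start) were matched for 43 of the 49 genes. A run of at least 8 consecutive C or T letters overlapping the 15 bases on either side of the start site occurred in 21 of 43 genes (48.8%), against 20.4% of 8544 tested genes and 20% of all 27025 genes in the table. In 12 of the 43 genes the run covered the annotated start itself. Windows of 60 bases, from 40 before to 20 after the start, are shown for 8 genes with such a run over the start site, with the run in capitals.
Rpl7a, chr2:26910767-26910826, plus strand: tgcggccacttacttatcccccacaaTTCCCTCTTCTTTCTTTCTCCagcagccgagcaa
Rpl35, chr2:39005112-39005171, minus strand: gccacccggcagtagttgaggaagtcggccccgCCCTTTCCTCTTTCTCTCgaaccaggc
Rpl38, chr11:114668540-114668599, plus strand: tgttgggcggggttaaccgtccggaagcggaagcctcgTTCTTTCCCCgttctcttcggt
Rplp2, chr7:141447611-141447670, plus strand: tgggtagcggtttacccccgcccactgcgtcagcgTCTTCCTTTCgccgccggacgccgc
Rps10, chr17:27635225-27635284, minus strand: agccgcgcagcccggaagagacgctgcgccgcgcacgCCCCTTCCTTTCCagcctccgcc
Rps18, chr17:33955646-33955705, minus strand: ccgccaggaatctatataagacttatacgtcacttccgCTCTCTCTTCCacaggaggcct
Rps6, chr4:86857348-86857407, minus strand: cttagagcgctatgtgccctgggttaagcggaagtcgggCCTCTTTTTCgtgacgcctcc
Rps27, chr3:90213629-90213688, minus strand: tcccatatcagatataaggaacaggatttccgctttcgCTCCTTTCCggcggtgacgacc

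The runs ranged up to 21 letters, in Rpl7a. For contrast, 4 members are shown whose longest run near the start was shorter than 8 or began after the start site, again with the longest run in capitals.
Rpsa, chr9:120127726-120127785, plus strand: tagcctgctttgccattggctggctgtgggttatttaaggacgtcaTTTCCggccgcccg
Rpl41, chr10:128549149-128549208, minus strand: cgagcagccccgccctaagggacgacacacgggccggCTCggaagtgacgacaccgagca
Rpl22l1, chr3:28805468-28805527, plus strand: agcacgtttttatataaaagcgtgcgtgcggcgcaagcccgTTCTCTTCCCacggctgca
Rpl3l, chr17:24727786-24727845, plus strand: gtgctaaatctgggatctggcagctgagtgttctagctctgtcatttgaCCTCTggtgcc

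An annotated start can differ from the one the cells use, so a window without a run says only that these letters are not at this position. Over the 300 bases on both strands, the 6 letters GGAAGT, the core bound by ETS family factors, occurred in 44.2% of the matched members and 32.9% of the tested genes. The core of YY1 sites, ATGGCG, occurred in 37.2% and 19.2%. The E-box CACGTG, the site of Myc and Max, occurred in 9.3% and 12.2%, and TATAAA in 14% and 8.01%. On the opposite strand GGAAGT reads as a stretch of pyrimidines after its first letter, so its matches can overlap a run. A match is a description of the sequence.

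The arrays placed most of the family at the top of their range. For 35 of the 49 genes the mean log2(signal + 16) was above 14, and their signals ran from 14794.1 to 51163.9, at or above the percentile of 99.2 on every array. Signals of different probe sets do not compare amounts of RNA, because probes differ in how well they bind. As a share of the summed signal of all named genes, the 49 genes held 5.23% and 5.33% on the control and AID-silenced arrays of pair 1, and 5.94% and 5.55% on those of pair 2. The control array of pair 2 thus gave the highest share, and both arrays of pair 2 were above both of pair 1. The 119 other tested genes above a mean log2 value of 14 had the same order. They held 11.7% and 11.9% on the control and AID-silenced arrays of pair 1, and 13.7% and 13.1% on those of pair 2.

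**Figure D1:**
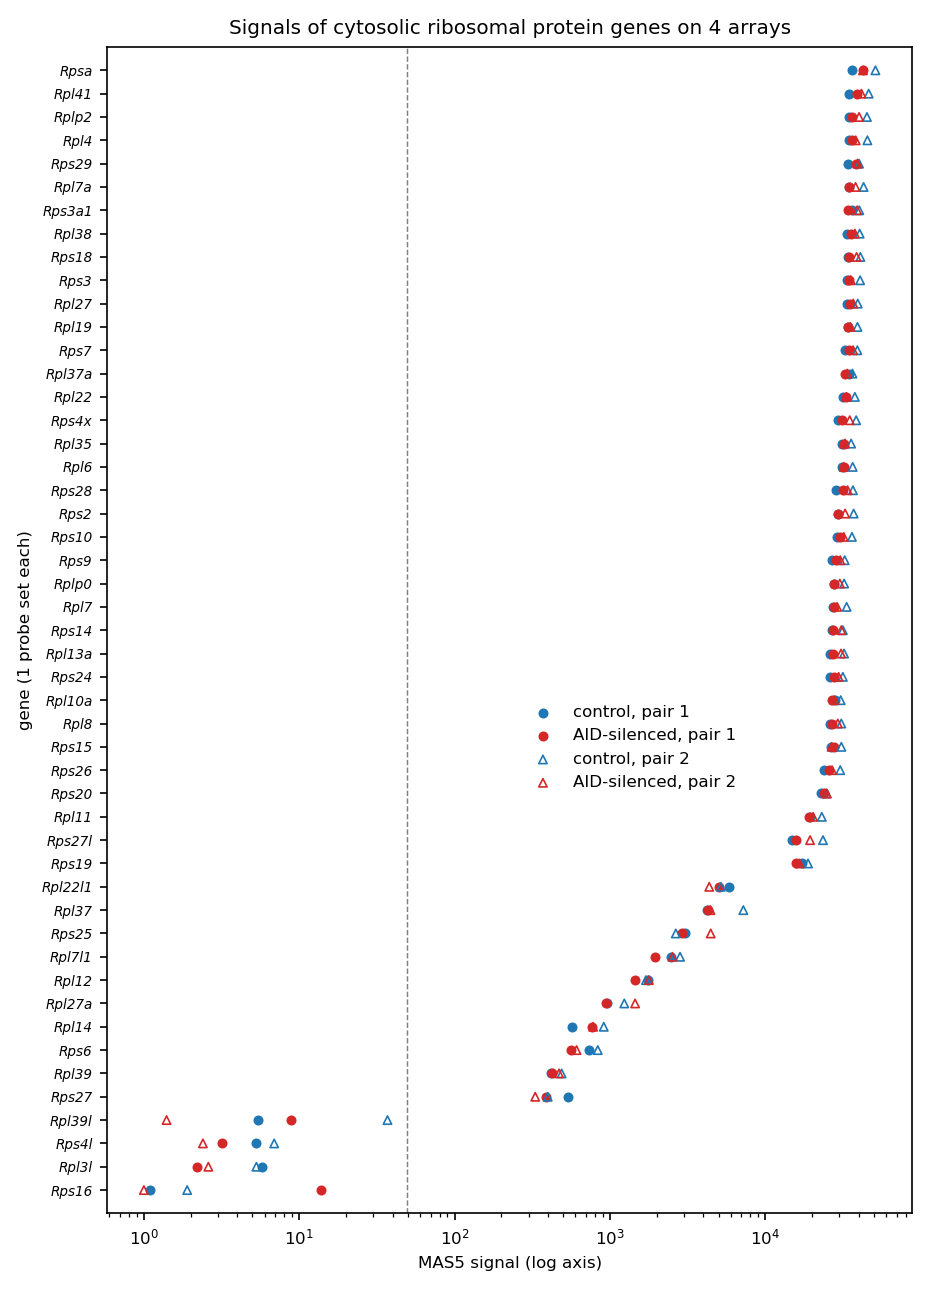
MAS5 signal (log axis) of the chosen probe set of each of the 49 genes on the 4 arrays, ordered by mean, with circles for pair 1, triangles for pair 2, blue for control and red for AID-silenced clones. The dashed line is the mean signal of 49.4 at which probe sets entered the test. 35 genes lie together at the right, 10 lie between 330.5 and 7225.1, and 4 lie left of the line.

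Rpsa, a small-subunit protein also known as a laminin receptor, had signals of 36279.9 in the control and 42638.8 in the AID-silenced clone of pair 1, and of 51163.9 and 42542.8 in pair 2. Rplp0 and Rplp2 are proteins of the stalk that recruits the elongation factors. Rplp2 gave 34467.6 and 36037.1 in the control and AID-silenced clones of pair 1 and 45123.7 and 40166.3 in those of pair 2. Rplp0 gave 27843.3 and 27572.6 in pair 1 and 32184.9 and 30189.0 in pair 2. In all of these genes the control clone of pair 2 had the highest signal.

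A dim probe set need not stand for a weakly expressed gene in this family. Of the 14 genes at or below a mean log2 value of 14, 9 also appear beside other symbols on probe sets above 14, which carry no gene name here. Rps16, a core small-subunit protein, had signals of 1.1, 13.9, 1.9 and 1.0 in the order control and AID-silenced of pair 1, control and AID-silenced of pair 2. In total 110 probe sets carry a ribosomal protein symbol together with others, and 31 further ribosomal protein genes appear only on these and were not analysed by name.

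The family includes 6 paralogs, copies of a ribosomal protein gene with a more restricted pattern of use. Rpl3l, which in mice replaces Rpl3 in heart and skeletal muscle, had signals between 2.2 and 5.8. Rps4l, a paralog of Rps4x, had signals between 2.4 and 6.9. Rpl39l, known from the testis, had signals of 5.4 and 8.9 in the control and AID-silenced clones of pair 1 and of 37.0 and 1.4 in pair 2. These 3 lay below the filter on every array. Rps27l, Rpl22l1 and Rpl7l1 were well above it, with signals of 14794.1 to 23524.5, 4359.3 to 5882.7 and 1946.1 to 2826.9.

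The first comparison set the AID-silenced against the control clones. No ribosomal protein gene was called as different, with 0 of 45 past a limma adjusted p of 0.05. In this comparison 0.00444% of 22519 probe sets passed in each direction. At an unadjusted p under 0.05 the count was also 0 of 45, or 1 with the control clone of pair 1 left out, while 3.49% of probe sets were past it in either direction. Over genes, 2.22% were past it as higher and 1.66% as lower. Mean differences of the tested genes ran from -0.42 to 0.34 on the log2 scale, with standard errors of 0.16 to 0.30 (n = 2 clones per group). With the pair number as a block, limma called 8 probe sets in place of 2, and 0 members. With so few clones, not passing does not show that a member was unchanged.

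The 2 pairs differed in direction for most of the family. In pair 1 the median difference of AID-silenced minus control was 0.04 over the 45 genes, and -0.01 after quantile normalisation. In pair 2 it was -0.15, and -0.02 after quantile normalisation, beside medians over all 10475 tested genes of 0.00 and -0.01. 30 of 45 members were higher in the AID-silenced clone of pair 1 and lower in that of pair 2, against 23.4% of tested genes, and this count was 10 after quantile normalisation. On the deposited scale it was 27 of the 35 members above a mean log2 value of 14, and 49 of the 119 other tested genes above 14. The reverse pattern was found in 3 members, Rpl12, Rpl27a and Rps25. These 33 members with opposite signs stand against 45.7% of tested genes, and after quantile normalisation their number was 19. 1 member was higher in both pairs, against 26.7% of tested genes, and 11 were lower in both, against 27.5%.

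**Figure D2:**
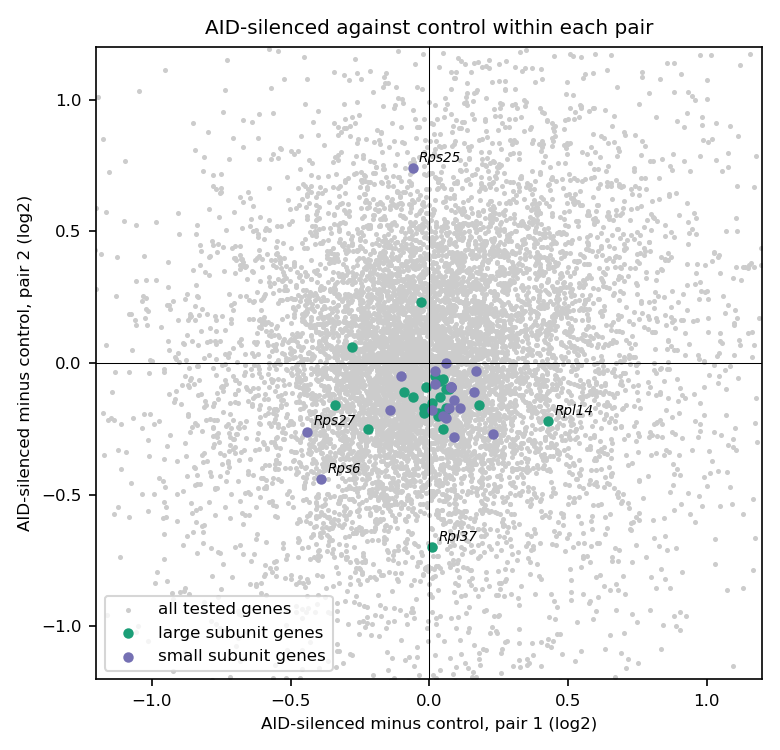
Log2 difference of AID-silenced minus control in pair 1 (horizontal) and in pair 2 (vertical), for all tested genes within the axis range (grey) and the tested members of the large (green) and small (purple) subunit. Most members lie in a tight group just right of 0 and below it, with medians of 0.04 and -0.15 that move to -0.01 and -0.02 after quantile normalisation.

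The mean over both pairs rested on single clones. The median over members of the mean difference was -0.05, and it became 0.09 when the control clone of pair 2 was left out. Leaving out the AID-silenced clone of pair 1 gave 0.01. It was -0.16 without the control clone of pair 1. Differences of at least 1.5-fold were found for 0 members in pair 1, against 16.4% of tested genes, and for 2 in pair 2, against 19.2%. In both pairs and the same direction there were 0, against 3.85%. Among the 119 other tested genes above a mean log2 value of 14 these counts were 3, 5 and 0. Among the 35 members above 14 they were 0, 0 and 0. The 2 members at 1.5-fold in pair 2 were Rps25 and Rpl37, both away from the bright end.

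Rps25, a small-subunit protein needed for initiation at several viral internal entry sites, had signals of 3030.3 and 2901.9 in the control and AID-silenced clones of pair 1. In pair 2 they were 2655.0 and 4453.2, so a single AID-silenced clone stood above the other 3 clones. The differences were -0.06 and 0.74, with a mean of 0.34 ± 0.27 (SE, n = 2 per group, limma adjusted p = 0.9996). Rpl37, a zinc-binding large-subunit protein, had 4228.4 and 4258.2 in pair 1 and 7225.1 and 4440.6 in pair 2. Here a single control clone stood above the other 3, and the differences were 0.01 and -0.70.

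Groups did not overlap, with both AID-silenced clones below both controls, for 6 members, against 14.4% of tested genes, and with both above for 0 members, against 14.3%. The first count was 8 after quantile normalisation and 2 after spike-in scaling, and the second 2 and 0. Rps6, the small-subunit protein that S6 kinases phosphorylate downstream of mTOR, had signals of 738.6 and 560.6 in the control and AID-silenced clones of pair 1. In pair 2 it had 835.2 and 609.7, which gave a mean difference of -0.42 ± 0.25 (SE, n = 2 per group, limma adjusted p = 0.9996 and unadjusted p = 0.146). Rps27, a zinc-binding small-subunit protein, had 533.9 and 388.6 in pair 1 and 397.9 and 330.5 in pair 2, a mean difference of -0.35 ± 0.30. The mean log2 values of both probe sets were below 14.

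Rpl22l1, the paralog of Rpl22, had signals of 5882.7 and 5031.8 in the control and AID-silenced clones of pair 1 and of 5175.1 and 4359.3 in pair 2. The groups did not overlap, but the margin between the higher AID-silenced and the lower control clone was small, and the mean difference was -0.24 ± 0.21. Rps19, the gene most often mutated in human Diamond-Blackfan anaemia, had 17304.0 and 15667.2 in pair 1 and 18847.6 and 16609.8 in pair 2, a mean difference of -0.16 ± 0.17. Rpl37a and Rpl10a made up the 6, with mean differences of -0.10 each, and Rpl10a was named after its values were seen. The chosen Rpl37a probe set had a mean signal of 34326.7. Another, at 34247.7, gave 0.05 and -0.06 in pairs 1 and 2, and on it the groups overlapped. A dimmer one, at 1314.1, gave -1.33 and -0.14. None of the 6 members passed the test.

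Rpl11, which binds Mdm2 when it is free of the ribosome, had signals of 19455.8 and 19251.8 in the control and AID-silenced clones of pair 1 and of 23102.7 and 20320.1 in pair 2. Its differences were -0.02 and -0.19. Rps3, which lines the entry channel of the messenger RNA, had differences of 0.05 and -0.20. Rpl7l1, a paralog of Rpl7, had differences of -0.34 and -0.16.

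The 1 member higher in both pairs was Rps20, a protein of the small-subunit head, at 0.06 and 0.00, and the second value lies within rounding of no difference. Opposite signs were largest by their smaller value in Rpsa (0.23 and -0.27), Rpl14 (0.43 and -0.22), Rpl41 (0.18 and -0.16) and Rps28 (0.16 and -0.11). Rpl14, a large-subunit protein, had signals of 567.9 and 771.0 in the control and AID-silenced clones of pair 1 and of 912.5 and 780.0 in pair 2. The 2 AID-silenced clones of Rpl14 were close to each other and lay between the 2 controls.

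The medians of the subunits lay close to each other, and their difference was not tested. The 24 tested large-subunit genes had medians of 0.02 in pair 1 and -0.15 in pair 2, and the 21 small-subunit genes had 0.06 and -0.14. Lower in both pairs were 7 of the large-subunit and 4 of the small-subunit genes.

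The second comparison set pair 2 against pair 1. Again 0 of 45 members passed a limma adjusted p of 0.05, as did 0.0% of the 22519 probe sets, and limma with the group as a block called 4 probe sets and 0 members. At an unadjusted p under 0.05, 5 members were higher in pair 2, against 5.32% of tested genes, and 0 were lower, against 10.2%. Above a mean log2 value of 14, 4 of the 35 members and 45 of the 119 other tested genes were past it as higher. As lower it was 0 in both sets. In either direction the count over the 45 members was 1 after quantile normalisation and 3 after spike-in scaling. Leaving out the control clone of pair 1 gave 0, the AID-silenced clone of pair 1 gave 1, the control clone of pair 2 gave 3 and the AID-silenced clone of pair 2 gave 15. The 5 were Rps27l, Rplp2, Rps4x, Rpl27a and Rpl13a, with Rps4x and Rpl13a named after their values were seen. Over all probe sets 13.5% were past that unadjusted p in either direction.

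On the deposited scale 38 of 45 members were higher in pair 2 in both groups, against 26.4% of tested genes, and this count was 13 after quantile normalisation and 1 after scaling to the CreX spike-in. On the deposited scale it was 32 of the 35 members above a mean log2 value of 14, and 87 of the 119 other tested genes above 14. Lower in both groups were 2 members, Rps27 and Rpl22l1, against 38.5% of tested genes. Both clones of pair 2 lay above both clones of pair 1 for 34 members, against 19.5%, and below both for 0, against 29.3%. After quantile normalisation these counts were 10 and 12, and after spike-in scaling 1 and 29. Among the 119 other genes above 14 they were 76 and 7 on the deposited scale. A difference of at least 1.5-fold was found in the control clones for 3 members (Rpl14, Rpl37 and Rps27l), against 26.5%, and in the AID-silenced clones for 2 (Rpl27a and Rps25), against 22.7%. For 0 members it was found in both groups, against 8.3%. Among the 119 other genes above 14 a difference of that size was found for 19, 5 and 3, in the same order. The median difference was 0.25 in the control clones and 0.08 in the AID-silenced clones, and it turned to -0.01 in both after quantile normalisation and to -0.07 and -0.24 after spike-in scaling.

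**Figure D3:**
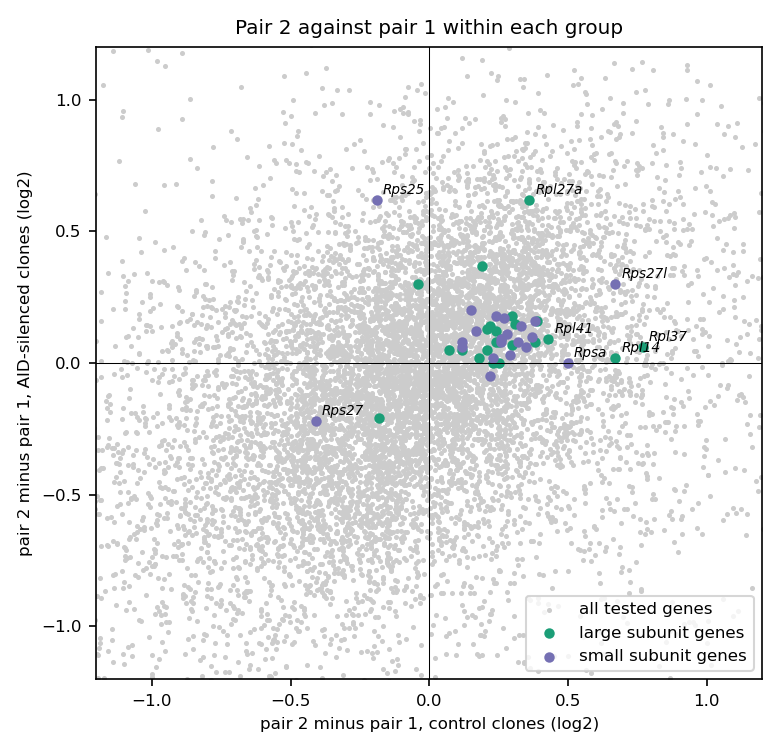
Log2 difference of pair 2 minus pair 1 in the control clones (horizontal) and in the AID-silenced clones (vertical), for all tested genes within the axis range (grey) and the tested members by subunit. On the deposited scale 38 of 45 members lie above 0 on both axes, a count that is 13 after quantile normalisation and 1 after spike-in scaling.

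The control clone of pair 2 had the highest value of the 4 clones for 39 of 45 members on the deposited scale, against 25.2% of tested genes, for 14 after quantile normalisation and for 3 after spike-in scaling. Among the 35 members above a mean log2 value of 14 it was highest for 34, the exception being Rps20. Among the 119 other tested genes above 14 it was highest for 81. The control clone of pair 1 had the lowest value for 31 of 45 members, against 20.6%, and for 11 and 2 after quantile normalisation and spike-in scaling. It was lowest for 28 of the 35 bright members and for 57 of the 119 other bright genes.

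Rps27l, a p53-inducible paralog of Rps27, had the smallest p of the family in this comparison. Its signals were 14794.1 and 15731.4 in the control and AID-silenced clones of pair 1 and 23524.5 and 19419.2 in those of pair 2. Pair 2 was higher by 0.49 ± 0.13 (SE, n = 2 clones per pair, limma unadjusted p = 0.00998 and adjusted p = 0.268), a ratio of 1.40. It was higher in 2 of 2 groups, its other 2 probe sets gave 0.51 and 0.44, and quantile normalisation and spike-in scaling left 0.26 and 0.17.

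Rps27 itself went the other way on its only single-symbol probe set, at -0.41 in the control clones and -0.22 in the AID-silenced clones. That probe set had a mean log2 value of 8.72, and all tested genes between 8 and 9 had a median of -0.24 in both groups. Rps27l, at 14.14, lay among genes with medians of 0.29 and 0.15. The mean difference of Rps27, -0.32, was -0.17 after quantile normalisation and -0.62 after spike-in scaling. Rpl27a, a large-subunit protein, had signals of 957.4 and 939.6 in the control and AID-silenced clones of pair 1 and of 1237.4 and 1451.9 in pair 2. Its difference between pairs was 0.49 ± 0.19 (SE, n = 2 per pair, limma unadjusted p = 0.0401 and adjusted p = 0.347). Rplp2 differed by 0.27 ± 0.10 (adjusted p = 0.337 by limma), beside a median of 0.25 over the 119 other tested genes above 14. After quantile normalisation and spike-in scaling it differed by 0.06 and -0.05.

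Rpl41, the smallest protein of the ribosome, had signals of 34438.2 and 39082.0 in the control and AID-silenced clones of pair 1 and of 46317.8 and 41592.6 in pair 2. Rpl4, whose long loop reaches into the exit tunnel, had 34834.6 and 36118.2 in pair 1 and 45416.0 and 38214.9 in pair 2. Between pairs the control clones differed by 0.43 in Rpl41 and 0.38 in Rpl4, and the AID-silenced clones by 0.09 and 0.08. Rps29, a zinc-binding small-subunit protein, gave 0.23 and 0.02. In all 3 the step between the controls was the larger on the deposited scale, as in the medians of the 119 other bright genes, 0.32 and 0.20. After spike-in scaling the step between the AID-silenced clones was the larger in size. In control and AID-silenced clones the steps were then 0.11 and -0.23 in Rpl41, 0.07 and -0.24 in Rpl4, and -0.09 and -0.30 in Rps29.

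The sign differed between groups for 5 members, against 35.0% of tested genes, and for 14 after quantile normalisation or spike-in scaling. The 5 were Rpsa, Rpl12, Rps15, Rps25 and Rpl6, the last named after its values were seen. Rpsa was 0.50 higher in the control clone of pair 2, and in the AID-silenced clones its signals of 42638.8 and 42542.8 were nearly equal. Rpl12, which lies at the base of the stalk, differed by -0.04 and 0.30, and Rps15, whose tail reaches the decoding site, by 0.22 and -0.05. For Rps25 the differences were -0.19 and 0.62.

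The difference between pairs moved with signal level across all genes. By mean log2 value, the median of pair 2 minus pair 1 over all tested genes was -0.24 in both groups between 8 and 9, and it was 0.10 and 0.09 between 12 and 13. Above 14, where 154 genes include 35 members, it was 0.29 in the control and 0.15 in the AID-silenced clones. The 119 other genes above 14 had medians of 0.32 and 0.20, and the 35 members had 0.26 and 0.08.

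**Figure D4:**
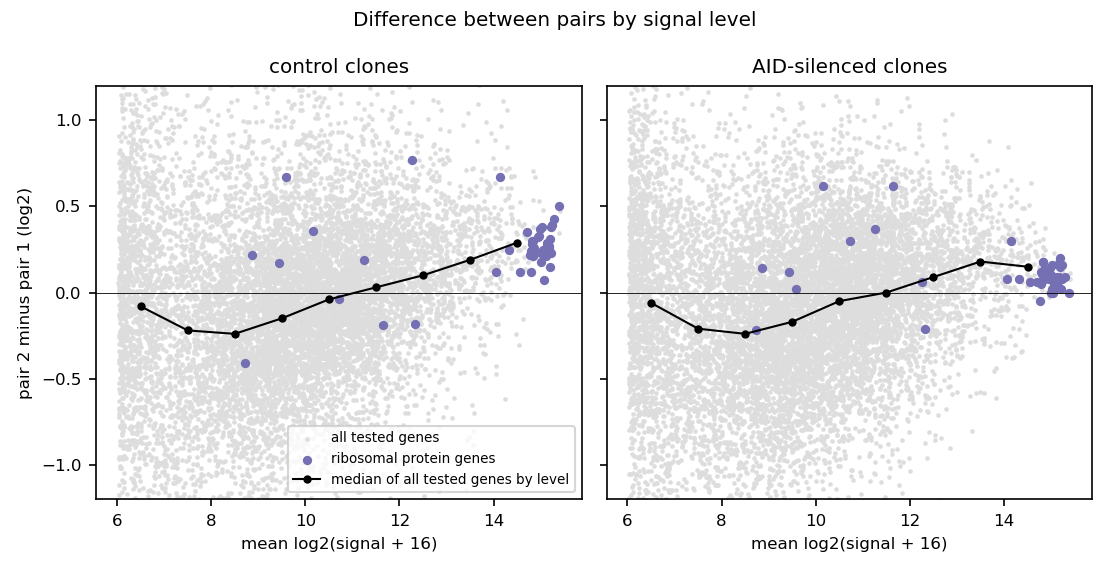
Log2 difference of pair 2 minus pair 1 against the mean log2(signal + 16), for all tested genes within the axis range (grey), the tested ribosomal protein genes (purple) and the median of all tested genes in steps of 1 (black line, the last point holding all genes above 14). The line climbs from -0.24 between 8 and 9 to 0.29 in the control clones, and the bright members lie about its end on the deposited scale.

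Some control transcripts were also higher in pair 2. The CreX spike-in, a bacteriophage transcript added in a known amount during the assay, was higher in pair 2 at both of its probe sets. The step was 0.29 and 0.34 between the control clones, and between the AID-silenced clones it was 0.26 and 0.38. The other spike-ins moved less, at -0.03 to 0.24 between the control and -0.06 to 0.25 between the AID-silenced clones over the probe sets of BioB, BioC and BioDn, so scaling to CreX rests on the spike-in with the largest steps. The Gapdh control probe sets were higher in pair 2 by 0.23 to 0.37 in the control clones and by 0.14 to 0.16 in the AID-silenced clones. Larger steps were found for beta-actin, at 0.95 to 1.19 and 0.37 to 0.66. For 18S ribosomal RNA, on signals of 135.8 to 595.7, they were 0.95 to 1.73 and 0.27 to 0.8. AID-silenced minus control of 18S was -0.53 to 0.23 in pair 1 and -1.02 to -0.89 in pair 2. The ratio of 3′ to 5′ Gapdh signal, a measure of RNA integrity, was 0.776 to 0.807 on the 4 arrays. The same ratio for beta-actin was 1.27 on both arrays of pair 1, and on those of pair 2 it was 1.12 in the control and 1.04 in the AID-silenced clone. The part of level, scaling, labelling or RNA integrity in the family's difference between pairs was not tested further than by these values and by the scalings.

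Dividing each array by its CreX signal moved the median of all tested genes between pairs from -0.07 to -0.37. Relative to the median of all tested genes, the family's median between pairs was 0.24 higher on the deposited scale, 0.25 higher after median scaling, 0.23 higher after spike-in scaling and 0.02 higher after quantile normalisation, which sets genes of the same rank to the same value. In the AID comparison the same distances were -0.05, -0.05, -0.05 and -0.01.

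**Figure D5:**
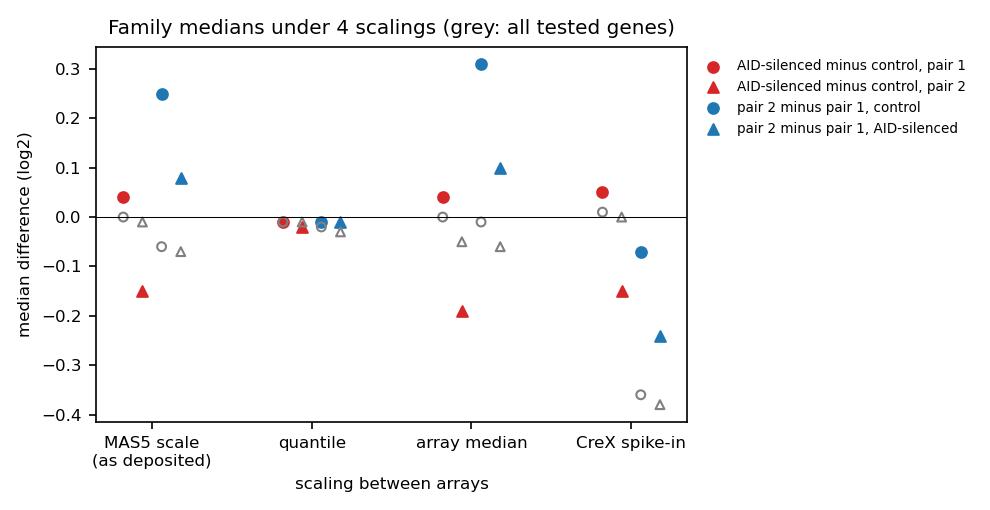
Median log2 difference over the 45 tested members (filled) and over all tested genes (grey, open) under the deposited MAS5 scale, quantile normalisation, division by the array median and division by the CreX spike-in, for AID-silenced minus control in each pair (red) and pair 2 minus pair 1 in each group (blue). Between pairs the members' medians of 0.25 and 0.08 become -0.01 and -0.01 after quantile normalisation and -0.07 and -0.24 after spike-in scaling.

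Grouping the members by their start-site sequence gave close medians, whose difference was not tested. The 21 tested members with a run of at least 8 pyrimidines, such as Rpl7a and Rps18 shown above, had medians of 0.04 and -0.17 for AID-silenced minus control in pairs 1 and 2. The 19 without had 0.03 and -0.16. For pair 2 minus pair 1 the medians were 0.27 and 0.09 with a run and 0.24 and 0.08 without, in control and AID-silenced clones. All of these are on the deposited scale, and 14 of the 21 and 16 of the 19 were above a mean log2 value of 14.

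Several probe sets of a gene did not always tell the same story. Of the 20 members with more than 1 tested probe set, the AID-silenced minus control values of a gene spanned a median of 0.24, and 16 spanned under 0.5. The widest spans were 1.01 in Rpl41, 0.94 in Rps18, 0.73 in Rpl37a and 0.62 in Rps9. In Rpl41 a probe set with a mean signal of 1019.3 gave -1.0 and the chosen one, at 40127.9, gave 0.01. In Rps18 a probe set with a mean signal of 54.9 gave -0.94 and the chosen one, at 36893.2, gave -0.03. Between pairs the spans reached 2.03 in Rpl22, where a probe set with a mean signal of 848.5 gave -1.90 and the chosen one 0.13. They reached 1.82 in Rps10, where a probe set with a mean signal of 12310.6 gave -1.34 and the chosen one 0.20. Between pairs these Rpl22 and Rps10 sets went against the direction of the chosen one, and both spans were singled out after their values were seen.

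Probe sets whose probes also match other sequences are common in this family. The suffix _x_at, which marks such sets, was carried by 38.1% of the members' 105 probe sets and by 5.42% of all probe sets. Plain _at sets made up 32.4% against 80.1%, and those of the family had a median mean signal of 396.2. Signal from processed pseudogenes or other transcripts cannot be told apart from that of the named gene on these sets. The 101 tested probe sets that carry several symbols, 1 of them a ribosomal protein, had medians of 0.06 and -0.11 for AID-silenced minus control in pairs 1 and 2, and of 0.25 and 0.07 between pairs in control and AID-silenced clones.

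Genes that work with the family were described from lists of their own. Of 16 tested translation factors and related genes with oligopyrimidine tracts, 2 were higher in both pairs, 6 lower in both and 8 opposite, with medians of 0.00 and -0.17 in pairs 1 and 2. Eef1a1, which delivers aminoacyl-tRNA to the ribosome, had signals of 38904.8 and 41390.2 in pair 1 and 49422.2 and 43703.1 in pair 2 (control, then AID-silenced). Fau, a fusion of a ubiquitin-like protein with the small-subunit protein Rps30, had differences of 0.04 and -0.14. Eef1a1 and Fau, which is not among the 16, had the sign pattern of most members. Of the 16, 6 had that pattern. The 2 higher in both pairs were Eif3h (0.19 and 0.71) and Eif3e (0.08 and 0.42). Among those lower in both, Hnrnpa1 had the largest mean difference (-0.56 and -0.22). For AID-silenced minus control 0 of the 16 passed the adjusted or unadjusted threshold.

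Of 66 tested ribosome assembly genes, which process ribosomal RNA and fit the proteins onto it, 46 were lower in the AID-silenced clone of both pairs and 5 higher in both, beside 27.5% and 26.7% of all tested genes. The medians were -0.25 and -0.17. By limma 0 of the 66 passed the adjusted threshold. At an unadjusted p under 0.05, 2 were lower and 0 higher, against 1.66% and 2.22% of tested genes. Nop10, a protein of the pseudouridine-guiding particles, had signals of 11538.4 and 8169.9 in pair 1 and of 12687.3 and 7174.6 in pair 2, a mean difference of -0.66 ± 0.19 (SE, n = 2 per group, limma adjusted p = 0.9996). Nob1, the endonuclease that trims the precursor of the small-subunit RNA, had 3617.4 and 1756.2 in pair 1 and 2767.5 and 2330.2 in pair 2, a mean difference of -0.64 ± 0.25. Of the 5 genes higher in both pairs, Riok3 had the largest mean difference, 0.54 ± 0.37, with 0.87 in pair 1 and 0.21 in pair 2.

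Among 76 tested mitochondrial ribosomal protein genes, whose products build the separate ribosome of mitochondria, 18 were higher in both pairs, 17 lower in both and 41 opposite. Their medians were -0.09 in pair 1 and 0.09 in pair 2. Of these genes 0 were past the adjusted threshold and 1 past the unadjusted one, as lower, against 1.66% of tested genes. Of the 18 tested genes of the mTOR, 4E-BP and Larp1 route that controls oligopyrimidine translation, 5 were higher in both pairs, 5 lower in both and 8 opposite. Larp1 differed by -0.06 and -0.16, and Eif4ebp1, the translation repressor inhibited by mTOR, by -0.42 and -0.32. Tsc1, with the largest mean difference of the 5 higher in both pairs, differed by 0.27 and 0.56. Of the 5 tested genes of the Mdm2 and p53 route, 1 was higher in both, 1 lower in both and 3 opposite. Of 13 ribosome quality control genes 2 were higher, 5 lower and 6 opposite. For AID-silenced minus control none of the genes in these 3 routes passed the adjusted or the unadjusted threshold.

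The labelled cell type was checked against its markers. All 10 measured plasma cell markers were above the filter, with summed signals of 138225.1 and 154289.0 in the control and AID-silenced clones of pair 1 and of 178498.1 and 183759.3 in those of pair 2. These sums were higher in pair 2, as were the family's signals, and their part in the family's values was not tested. Of the markers of other cells, 1 of 7 for T and NK cells, 1 of 7 for myeloid cells, 2 of 6 for stroma and 0 of 1 for red cells were above it. The summed signals of those 4 lists were 107.5 to 252.4, 322.8 to 483.6, 568.9 to 653.4 and 6.3 to 60.8. The median signal of all probe sets was 52.7 to 54.9 on the 4 arrays, and the highest was 40603.5 to 53070.5, the latter on the control array of pair 2.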

How the data were processed

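RNA of 4 clones was measured on single-colour arrays, 1 array per clone. The deposited values are intensities on a linear scale, 1 signal per probe set. Per the submitters' processing notes MAS5 was used, and the 2% trimmed mean of each array was 500. No aligner or further step applies, and settings of MAS5 are not given in the sources used here. Values were used as log2(signal + 16), which understates differences of dim genes, and the 64 control probe sets were not tested. Those in the upper 0.5 by mean log2, 22519 in number, were fitted with limma 3.58.1 (lmFit and eBayes, trended and robust; statmod 1.5.0, R 4.3.3) on all 4 arrays. Benjamini-Hochberg adjustment ran over all of them with a threshold of 0.05. The p-values measure the spread between 2 clones per group, and the number of arrays limits the precision. A gene stands for its brightest single-symbol probe set, which gave 10475 tested genes. The step was tested on simulated data. The level of the silenced gene is not reported here.

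The labels number the pairs, and the series text names the pairs as what was extracted and hybridised, so the numbers were taken as pairs. The differences of pair 2 from pair 1 in the 2 groups correlated across 10475 genes, which are not independent (r = 0.315, rho = 0.370). The block was an alternative, as were other scalings, pseudocounts of 1 and 64, other filters, other choices of probe set and leaving out each clone. The spike-in scaling and the restriction to bright members were added after seeing the data.

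The members, the gene lists and the motifs were chosen with earlier results of these data known. Members were named by a rule: the largest differences of the same sign in each comparison, the largest of opposite sign, the brightest and dimmest, paralogs, genes below the filter, genes with known second roles and genes whose probe sets differ most. List genes were named from the largest differences of the same sign, of which not all are printed. Eef1a1, Fau and Larp1 were named for their roles after their values were seen. Figures were drawn with matplotlib 3.10.9.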

Additional observations from a re-analysis of the deposited data

Results flagged for a closer look

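The median over the 45 tested ribosomal protein genes had opposite signs in the 2 pairs, at 0.04 in pair 1 and -0.15 in pair 2 for AID-silenced minus control. With 1 array per clone this difference between pairs was not tested, and quantile normalisation brought the medians to -0.01 and -0.02. Single genes with opposite signs of at least 0.2 in size were Rpl14, at 0.43 in pair 1 and -0.22 in pair 2, and Rpsa, at 0.23 and -0.27. Rpl39l, below the filter on low signals, had 0.22 and -1.61. Between pairs Rpl39l gave 1.31 in the control clones and -0.52 in the AID-silenced clones. None of these differences was tested.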

How the results depend on the processing

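With 2 clones per group, signals of bright and dim probe sets alike carry no more precision than the spread between clones. No member passed the adjusted threshold under any setting run, in either comparison. Alternative values of single genes were counted only for members named for the largest differences of the same or opposite sign. For AID-silenced minus control these were 11 members, and 10 of 131 values, in 6 members, had the other sign. Between pairs they were 12 members, and 10 of 143 values, in 6 members, had the other sign. Members with smaller differences were not counted, so these numbers do not describe the whole family. The median for AID-silenced minus control ran from -0.16 to 0.09 when a clone was left out, at 0.01 without the AID-silenced clone of pair 1 and 0.09 without the control of pair 2, and the median between pairs from 0.12 to 0.23. Quantile normalisation turned the pair 1 median to -0.01, the median between pairs to 0.00, and its values in control and AID-silenced clones to -0.01 and -0.01. Spike-in scaling turned the last 3 to -0.14, -0.07 and -0.24. Averaging all probe sets of a gene gave -0.02 in pair 1.

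Counts moved as well. Members higher in both pairs (1) were 7 after quantile normalisation, 0 after median scaling, 2 with the mean of probe sets and 2 of 39 without the _x_at and _s_at sets. Those lower in both pairs (11) were 21 with the mean of probe sets and 7 of the 35 bright members. Members higher in pair 2 in both groups (38) were 13 after quantile normalisation and 1 after spike-in scaling. Those lower in both groups (2) were 16 and 30 under these scalings, 1 with the stricter filter, 7 with the mean of probe sets, 4 without the suffixed sets and 0 among bright members. Probe sets called between AID-silenced and control clones (2) were 8 with the replicate block and 2 to 143 when a clone was left out, with 143 when the control clone of pair 1 and 59 when that of pair 2 was left out. Between pairs (0) they were 4 with the group as a block and 0 to 54 without a clone, 54 without the AID-silenced clone of pair 2. A group left with 1 clone was assumed to vary like the other. The causes were not tested.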
